A study of Mus musculus with 2 samples.

Results

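The genes described here are 10 genes that resting microglia express, chosen as a list of gene symbols with earlier results of these data known: *P2ry12*, *Tmem119*, *Cx3cr1*, *Siglech*, *Selplg*, *P2ry13*, *Gpr34*, *Sall1*, *Slc2a5* and *Csf1r*. All 10 were found by symbol among the 31053 genes that were counted. Microglia are the resident macrophages of the brain, and in the healthy brain they keep a program of surface receptors through which they sense nucleotides, chemokines, lipids and growth factors. This homeostatic program depends on TGF-beta signalling and on a set of transcription factors that includes Sall1. Around amyloid plaques, many microglia lower it and switch on a different program, called disease-associated microglia (DAM), with genes for lipid handling, lysosomes and phagocytosis.

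Nuclei were sequenced one by one from the entorhinal cortex of APP/PS1 mice, all male and 18 months old, in 2 libraries that each pooled 5 mice. APP/PS1 is a transgenic line that carries human amyloid precursor protein and presenilin transgenes under a prion promoter and deposits amyloid in the brain. Treatment started at 15 months and ended at 18 months, when mice of the OLE library had drunk alkaline water with N-oleoyl-leucine (C18:1-Leu, called OLE) at 25 mg/kg/day, and mice of the vehicle library alkaline water with DMSO. No library of mice without the transgenes was used here.

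Nuclei were captured in droplets, where each captured RNA molecule receives a unique molecular identifier (UMI) so that amplified copies are counted once. In the vehicle library, 70845739 UMIs were counted in 6745 nuclei, and in the OLE library 69485537 UMIs in 6173 nuclei. The libraries shared 14 cell barcodes. There is 1 library per condition, so no test between conditions was possible, nuclei were not treated as replicates, and all intervals are 95% intervals for counting error only (exact Poisson for levels, exact binomial of the Clopper-Pearson type for shares and ratios). Levels are UMIs of a gene per 1000000 UMIs of the nuclei summed.

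After likely doublets were left out, nuclei were clustered without the 10 genes, so that their values did not take part in making the groups, and clusters were named from other marker genes. Microglia numbered 330 nuclei with 859098 UMIs in the vehicle library and 260 nuclei with 693866 UMIs in the OLE library. Clustered again, they split into a DAM-like state, led by *Mamdc2*, *Ctnna3* and *Dkk2*, with 161 vehicle and 120 OLE nuclei, and a homeostatic-like state with 169 and 140 nuclei. The homeostatic-like state was named from markers such as *Ltc4s*, and the hemoglobin genes *Hba-a1* and *Hba-a2* were among its leading genes too. A macrophage-like group of 5 and 8 nuclei, led by *F13a1* and *Mrc1*, was kept apart from microglia. Of the 27 clusters of all nuclei, 5 stayed unnamed. The largest pair of these divided by library, with 2238 vehicle and 320 OLE nuclei in one and 246 and 1724 in the other, and neither was used in a comparison of conditions.

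Among 8 named cell types, all 10 genes had their highest level in microglia in both libraries. Of the 15973 genes that reached 100 UMIs when both libraries were added, 12.9% had their highest level there. Summed over the 10 genes, microglia held 4509 UMIs per 1000000 (4368 to 4654) in the vehicle library and 4890 (4727 to 5057) in the OLE library. In glutamatergic nuclei the sum was 24.0 (22.6 to 25.6) and 29.0 (27.4 to 30.8). Microglia were thus set apart from neurons by over 2 orders of magnitude on this summed scale, and the other glia lay between, with 93.9 and 82.9 in oligodendrocytes, 85.7 and 87.0 in astrocytes and 50.7 and 50.1 in oligodendrocyte precursors.

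The receptors had levels in other cell types far below those in microglia. *P2ry12*, an ADP receptor that steers microglial processes towards injury, had a level of 767 (710 to 828) in vehicle and 824 (758 to 895) in OLE microglia. Its next highest cell type was astrocytes, at 18.5 and 28.6. The level in microglia was 41.5-fold (24.6 to 76.4) and 28.8-fold (19.3 to 44.9) higher. *Csf1r*, the growth factor receptor that microglia need to survive, was at 873 (812 to 938) and 1016 (942 to 1094), 49.1-fold (16.7 to 238) above endothelial and mural nuclei, its next cell type in the vehicle library, and 83.0-fold (54.4 to 133) above oligodendrocytes, that in the OLE library. *Cx3cr1*, the receptor of the neuronal chemokine fractalkine, was at 857 (796 to 921) and 876 (808 to 949), 32.2-fold (24.7 to 42.9) and 30.8-fold (14.1 to 84.3) above its next cell type. The lower limits of these folds were thus above 14 for each of the 3 receptors.

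The surface proteins showed the same placement. *Selplg* encodes the ligand of P-selectin and was at 627 (576 to 683) in vehicle and 656 (597 to 719) in OLE microglia. *Siglech*, a sialic acid-binding lectin, was at 663 (610 to 720) and 663 (604 to 726). Of the UMIs of *Siglech* in all retained nuclei, 70.5% and 60.6% lay in microglia, which made up 5.18% and 4.44% of these nuclei. *Tmem119*, a transmembrane protein used as a microglial marker, was at 164 (138 to 194) and 199 (167 to 235).

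*Tmem119* and *Sall1* had the smallest distance between microglia and the next cell type. *Tmem119* was at 9.38 in vascular leptomeningeal nuclei of the vehicle library, from 6 UMIs, and at 29.2 in those of the OLE library, from 20 UMIs. Its level in microglia was 17.5-fold (7.84 to 48.5) and 6.81-fold (4.24 to 11.5) above these. *Sall1*, a zinc finger repressor that keeps microglial identity, was at 162 (136 to 191) and 151 (124 to 183) in microglia and at 29.0 and 26.3 in astrocytes. The distance was 5.58-fold (3.54 to 9.19) and 5.75-fold (3.64 to 9.47), and these intervals overlapped. Of the other genes, *Gpr34*, a receptor of lysophosphatidylserine, was at 198 and 244 in microglia, *Slc2a5*, a fructose transporter, at 113 and 156, and *P2ry13*, another ADP receptor, at 85.0 and 105.

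The order of the genes depended on the scale. Per 1000000 UMIs and per kb of exons, *P2ry12* had the highest level in microglia, at 301 in the vehicle and 324 in the OLE library. *Siglech* (196 and 196) and *Cx3cr1* (190 and 195) followed, with overlapping intervals. *Csf1r* (151 and 176) and *Selplg* (147 and 153) also overlapped with each other, and in the OLE library *Csf1r* overlapped with *Cx3cr1*. *Gpr34* (94.7 and 117) and *Tmem119* (70.9 and 85.9) came next and overlapped. The lowest levels per exon kb were those of *P2ry13* (33.6 and 41.6), *Slc2a5* (33.2 and 45.8) and *Sall1* (30.7 and 28.7). UMIs need not grow with exon length, so this order holds for this scale only. Introns were counted too, and per kb of gene body the order was different, with *Siglech* first (61.7 and 61.7), *Selplg* second (44.5 and 46.5) and *P2ry12* in place 7 (16.5 and 17.7).

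The share of nuclei with a UMI was limited by depth. *Csf1r* was found in 83.6% of vehicle microglia (79.2 to 87.5%) and in 85.4% of OLE microglia (80.5 to 89.4%), with medians of 2435 and 2348 UMIs per nucleus. In glutamatergic nuclei, which should lack it, the shares were 4.02% (3.16 to 5.03%) and 3.78% (2.94 to 4.76%) at medians of 20924 and 19242 UMIs. With each nucleus thinned to 1000 UMIs, and 2 microglia of each library left out as shallower, *Csf1r* was found in 56.1% and 57.0% of microglia and in 0.330% and 0.333% of glutamatergic nuclei. *Cx3cr1* (56.7% and 55.8%) was found about as often in thinned microglia. The rarest was *P2ry13*, found in 7.62% and 10.1% of thinned microglia and in none of the thinned glutamatergic nuclei.

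At this depth only some of the 10 genes were found in a nucleus. At 1000 UMIs per nucleus, homeostatic-like nuclei held a mean of 3.86 of the genes in the vehicle library (SD 1.74 over 168 nuclei) and 4.22 in the OLE library (SD 1.40 over 139 nuclei). DAM-like nuclei held 2.14 (SD 1.27 over 160 nuclei) and 2.12 (SD 1.44 over 119 nuclei). At least 5 of the genes were found in 36.3% and 39.6% of homeostatic-like nuclei, and in 3.75% and 5.04% of DAM-like nuclei. None of them was found in 1 homeostatic-like nucleus of the vehicle library and in 0 of the OLE library, against 14 and 18 DAM-like nuclei. The ranges of the states overlapped, since DAM-like nuclei reached up to 6 of the genes. A gene can be missed by sampling at this depth, and the spread was not compared with counting error. In glutamatergic nuclei the mean was 0.0319 and 0.0389.

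The low counts outside microglia did not keep the proportions found in microglia. *P2ry12* made up 17.0% (15.8 to 18.2%) and 16.9% (15.6 to 18.2%) of the UMIs of the 10 genes in microglia, but 34.8% (31.8 to 37.8%) and 40.4% (37.5 to 43.3%) in glutamatergic nuclei. *Cx3cr1* rose likewise, from 19.0% (17.8 to 20.3%) and 17.9% (16.6 to 19.3%) to 29.2% (26.5 to 32.2%) and 30.4% (27.7 to 33.1%). *Siglech* went the other way, from 14.7% and 13.6% in microglia to 5.53% (4.21 to 7.13%) and 4.30% (3.20 to 5.65%). So did *Csf1r*, from 19.4% and 20.8% to 9.19% and 7.29%, and *Selplg*, from 13.9% and 13.4% to 6.62% and 4.74%. For *P2ry12*, *Cx3cr1*, *Siglech*, *Csf1r* and *Selplg* the intervals of microglia and glutamatergic nuclei did not overlap in either library, and the cause was not tested. In the unnamed nuclei, *Gpr34* stood out, with 9.88% (8.49 to 11.4%) and 9.67% (8.43 to 11.0%) against 4.39% (3.76 to 5.08%) and 4.98% (4.27 to 5.77%) in microglia, and the unnamed nuclei held 39.1% and 42.7% of all its UMIs.

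In the annotation, several of the genes lie in or over other genes. *P2ry12* and *P2ry13* both lie inside *Med12l*, a Mediator subunit gene on the opposite strand, whose level was 253 and 243 in glutamatergic nuclei and 169 and 196 in microglia. *Gpr34* lies inside *Cask*, a synaptic scaffold gene on the opposite strand, at 222 and 210 in glutamatergic nuclei and 322 and 281 in microglia. Both host genes were thus high in neurons, where *P2ry12* was at 8.36 and 11.7, *P2ry13* at 0.332 and 0.331 and *Gpr34* at 1.28 and 1.63. The gene body of *Csf1r* (ENSMUSG00000024621, chromosome 18 of GRCm38, 61100598 to 61132149, plus strand) overlaps the end of *Hmgxb3* on the opposite strand, which was at 61.7 and 72.1 in microglia and 35.0 and 34.3 in glutamatergic nuclei.

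The annotated gene body of *Cx3cr1* is the longest of the 10, at 168 kb. It covers *Gorasp1*, *Csrnp1* and *Xirp1* on its own strand, and each of these had 0 UMIs in every cell type of both libraries. Reads that fall in more than 1 gene of a strand are not counted, so these zeros set no limit on the levels of the 3 genes. On the opposite strand it overlaps *Wdr48*, at 48.9 and 54.8 in microglia and 32.0 and 32.3 in glutamatergic nuclei, and *Ttc21a*, at 0.665 and 0.713 in glutamatergic nuclei with 0 UMIs in microglia. Of the noncoding genes on that strand, *1700019L13Rik* and *Gm47043* had 0 UMIs in microglia, and *Gm33858* had 5 UMIs in each library's microglia. Whether these overlaps play a part in the neuronal UMIs of *P2ry12* and *Cx3cr1* was not tested.

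The question in the microglial states was how far the homeostatic genes fell where the DAM program was on, in each library by itself. All 10 genes were lower in DAM-like than in homeostatic-like nuclei in both libraries. Their sum was 6263 UMIs per 1000000 (6032 to 6500) in homeostatic-like and 2641 (2487 to 2801) in DAM-like nuclei of the vehicle library, and 6819 (6547 to 7100) and 2967 (2789 to 3154) in those of the OLE library. Of the 8 genes with at least 100 UMIs in the vehicle comparison, 6 were past 1.5-fold in either direction, against 20.5% of all 2013 genes tested, 6 were lower, against 11.3%, and 0 were higher, against 9.19%. In the OLE library 8 of 9 were past 1.5-fold, against 23.9% of 1542 genes, 8 were lower, against 14.4%, and 0 were higher, against 9.53%. Among genes with at least 100 UMIs, a log2 ratio below 0 was found for 8 of 8 in the vehicle library, against 49.9% of all genes, and for 9 of 9 in the OLE library, against 50.6%. One above 0 was found for 0 of 8, against 50.1%, and for 0 of 9, against 49.4%. The counting interval excluded 0 for the same 8 of 8, against 33.2% of all genes, and 9 of 9, against 37.7%, and with fewer UMIs *Slc2a5* and *P2ry13* in the vehicle library did so too, while *P2ry13* in the OLE library did not. With states taken from the activation score, 5 genes were past 1.5-fold in the OLE library and the medians were -0.84 and -0.67. With nuclei thinned to 1000 UMIs the OLE library had 5 such genes too. These were *P2ry12*, *Cx3cr1*, *Siglech*, *Selplg* and *Csf1r*, the only genes that could be compared there, so none of the compared genes lost the call. In the processing used here, the median log2 ratio of DAM-like to homeostatic-like over these genes was -1.30 in the vehicle and -1.37 in the OLE library, while over all genes it was 0.00 and -0.00. The filter at 100 UMIs favours genes high in one of the states, and *P2ry13* did not pass it in either library. The intervals of the 2 libraries overlapped for all 10 genes. Markers of other cells also differed between the states of the OLE library. With the glutamatergic profile subtracted the medians were -1.28 and -1.25, and with homeostatic-like nuclei with a UMI of a T cell marker left out they were -1.27 and -1.37. In the latter setting 6 genes were past 1.5-fold in the OLE library, where *Sall1* and *Slc2a5* could not be compared. The part of oligodendrocyte markers was not tested.

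**Figure D1:**
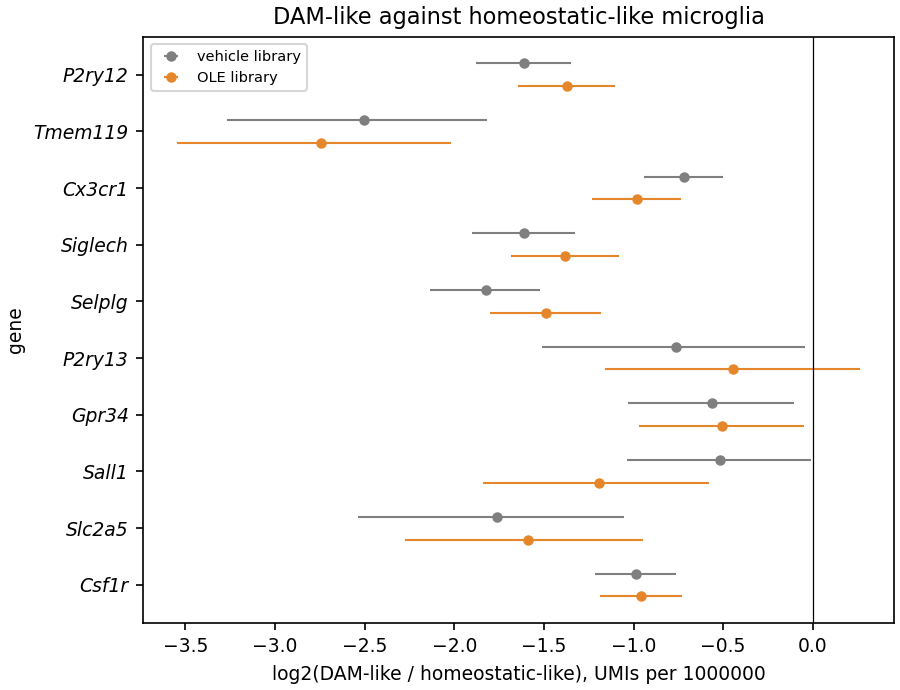
Log2 ratio of DAM-like to homeostatic-like nuclei (x axis, from UMIs per 1000000) for each gene (y axis) in the vehicle library (grey) and the OLE library (orange), where bars are exact 95% intervals for counting error. All points lie below 0, *Tmem119* lies lowest at -2.50 and -2.74, and the interval of *P2ry13* in the OLE library reaches above 0.

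The surface proteins had some of the largest differences. *Tmem119* was at 273 (227 to 326) in homeostatic-like and 48.1 (29.4 to 74.3) in DAM-like nuclei of the vehicle library, and at 346 (287 to 414) and 51.8 (30.7 to 81.9) in those of the OLE library. It was 5.68-fold and 6.69-fold lower in DAM-like nuclei, with log2 ratios of -2.50 (-3.27 to -1.81) and -2.74 (-3.54 to -2.02). With states from the clusters these were the largest falls of the 10 in each library. *Selplg*, the neighbour of *Tmem119* on chromosome 5, was at 961 and 272 in the vehicle and at 967 and 345 in the OLE library. Its log2 ratio was -1.82 (-2.13 to -1.52) and -1.49 (-1.80 to -1.18). *Siglech* was at 984 and 322 in the vehicle and at 958 and 368 in the OLE library, with log2 ratios of -1.61 (-1.90 to -1.33) and -1.38 (-1.69 to -1.08). All 3 surface proteins were thus lower in DAM-like nuclei in each library, but by how much depended on the processing. With states taken from the activation score, *Tmem119* had log2 ratios of -1.29 and -1.11, *Selplg* -1.06 and -0.67 and *Siglech* -1.32 and -0.81. With no doublets left out, the log2 ratios of DAM-like to other microglia in the OLE library were -2.14, -1.02 and -0.98.

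The log2 ratios of the receptors varied in size, with no test between genes. *P2ry12* was at 1137 (1040 to 1241) in homeostatic-like and 373 (316 to 436) in DAM-like nuclei of the vehicle library, and at 1189 (1077 to 1310) and 460 (392 to 538) in those of the OLE library. It was 3.05-fold and 2.58-fold lower in DAM-like nuclei, with log2 ratios of -1.61 (-1.88 to -1.35) and -1.37 (-1.64 to -1.10), and with states taken from the activation score they were -0.93 and -0.92. The related *P2ry13* was at 106 and 62.5 in the vehicle and at 121 and 89.2 in the OLE library. Its log2 ratio was -0.76 (-1.51 to -0.04) and -0.44 (-1.16 to 0.26), from 26 and 31 UMIs in DAM-like nuclei, so its difference was not detectable at this depth in the OLE library. The intervals of *P2ry12* and *P2ry13* overlapped in both libraries, and whether they differed in the size of the fall was not tested.

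*Cx3cr1* was at 1058 and 642 in the vehicle library and at 1163 and 590 in the OLE library, in homeostatic-like and DAM-like nuclei. Its log2 ratio was -0.72 (-0.94 to -0.50) and -0.98 (-1.23 to -0.73), above the intervals of *P2ry12*, *Siglech*, *Selplg* and *Tmem119* in the vehicle library. *Csf1r* was at 1148 and 580 in the vehicle and at 1342 and 691 in the OLE library, 1.98-fold and 1.94-fold lower in DAM-like nuclei. Both were thus still found in DAM-like nuclei, where the interval of *Csf1r* in the vehicle library was 509 to 658. Neither fall stayed past 1.5-fold in every setting. In the OLE library *Csf1r* was at -0.45 with no doublets left out, -0.48 with states from the activation score and -0.56 at resolution 0.6, and *Cx3cr1* at -0.50, -0.42 and -0.56. In the vehicle library *Cx3cr1* was at -0.35 with no doublets left out and -0.54 with states from the score, and *Csf1r* at -0.54 in the latter. *Gpr34* was at 235 and 159 in the vehicle and at 286 and 201 in the OLE library. Its log2 ratio of -0.56 (-1.03 to -0.11) and -0.50 (-0.97 to -0.05) stayed within 1.5-fold in both libraries. With states from the activation score it was -0.09 and -0.25. With no doublets left out it was -0.20 and 0.12. Values of that setting, here and for *Cx3cr1* and *Csf1r*, compare DAM-like with other microglia, where 26 vehicle and 16 OLE nuclei led by neuronal genes stayed unnamed. The 0.12 is thus not shown to be a change of sign against homeostatic-like nuclei. Values at resolution 0.6 also compare DAM-like with other microglia, which need not all be homeostatic-like. At that resolution a group of 43 vehicle and 33 OLE nuclei met the rule for T cells, and 8 and 9 nuclei stayed unnamed.

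The transcription factor and the transporter completed the list. *Sall1* was at 190 (151 to 235) and 132 (99.6 to 172) in the vehicle library, in homeostatic-like and DAM-like nuclei, and at 211 (165 to 265) and 92.1 (63.0 to 130) in the OLE library. Its log2 ratio was -0.52 (-1.04 to -0.01) and -1.19 (-1.84 to -0.58), past 1.5-fold in the OLE library only, but these intervals overlap, and the difference between the libraries was not tested. With states taken from the activation score it was the other way, at -0.75 in the vehicle and -0.55 in the OLE library, and with log-normalized counts the vehicle value was -0.63. *Slc2a5* was at 171 and 50.5 in the vehicle and at 234 and 77.7 in the OLE library, 3.39-fold and 3.01-fold lower in DAM-like nuclei.

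Without the clusters, microglia of each library were ranked by an activation score, the mean log expression of the 35 activation genes in the files at 1000 UMIs per nucleus, and divided into 4 bins of 82 or 83 vehicle and 65 OLE nuclei. The sum of the 10 homeostatic genes was 6212 (5887 to 6552), 5285 (4975 to 5610), 3858 (3590 to 4141) and 2810 (2600 to 3032) from the lowest to the highest bin of the vehicle library. In the OLE library it was 5911 (5557 to 6283), 5960 (5605 to 6331), 4182 (3884 to 4497) and 3439 (3165 to 3731). The sum thus fell over each step of the score in the vehicle library, and from the second bin on in the OLE library. *Tmem119* went from 247 (185 to 322) to 71.9 (41.9 to 115) over the bins of the vehicle library and in the OLE library from 286 (212 to 377) in the lowest through 155 (102 to 226) in the third bin to an interval of 54.3 to 154 in the highest, from 16 UMIs against 50 in the lowest. *Gpr34* showed no such order, at 256 (193 to 332) and 199 (146 to 264) in the end bins of the vehicle and 217 (154 to 298) and 267 (195 to 358) in those of the OLE library.

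**Figure D2:**
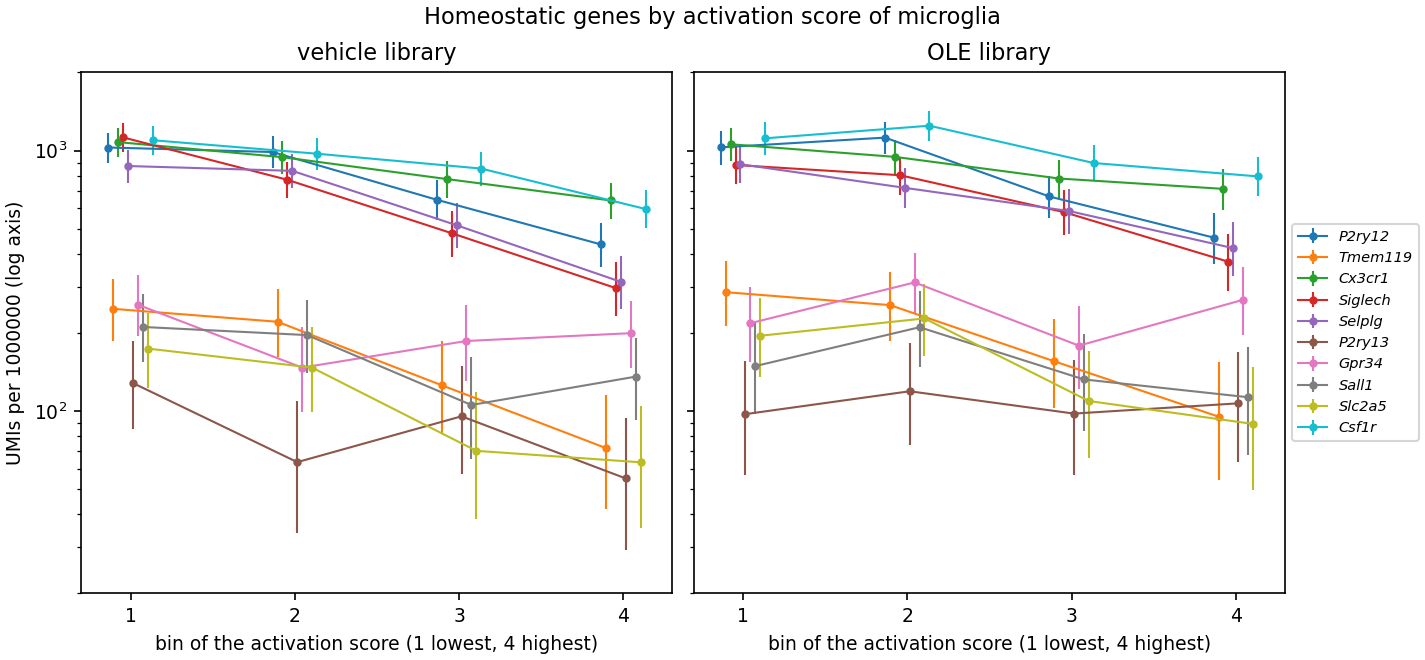
Level of each gene in UMIs per 1000000 (y axis, log scale) in the 4 bins of the activation score (x axis, from the lowest score to the highest) for the vehicle library (left) and the OLE library (right), where bars are exact Poisson 95% intervals. *P2ry12* went from 1028 in the lowest to 436 in the highest bin of the vehicle library and from 1029 to 463 in the OLE library, while *Gpr34* had no steady order.

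In the few macrophage-like nuclei, some of the 10 genes were found and others were not. *Csf1r*, which all macrophages use, was at 813 (390 to 1495) in the vehicle and 821 (479 to 1315) in the OLE library, from 10 and 17 UMIs, within the range of microglia. *Tmem119*, *Selplg*, *Sall1* and *Slc2a5* had 0 UMIs in both libraries, and the limit that a count of 0 allows, taken as 3 UMIs and not as a Poisson bound, is 244 and 145 per 1000000 in these few nuclei. *Cx3cr1* was found with 5 and 6 UMIs, *P2ry12* with 2 and 7, *Siglech* with 2 and 4, *Gpr34* with 1 and 1 and *P2ry13* with 1 and 0. The level of *Selplg* in microglia was above these limits in both libraries, while those of *Tmem119*, *Sall1* and *Slc2a5* were under the limit in the vehicle library and within 1.5-fold of it in the OLE library, so an absence was not detectable at this depth.

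The other lists give the setting of this difference. Over all genes, 9.19% were higher by 1.5-fold and 11.3% lower in DAM-like nuclei of the vehicle library, and 9.53% and 14.4% in those of the OLE library, the shares to set beside each list. Many genes of the lists took part in the clustering that made the states, so their direction was set by the grouping and is given as a description. Of 22 other homeostatic or microglia-enriched genes with at least 100 UMIs in the vehicle library, 13 were lower by 1.5-fold in DAM-like nuclei and 0 higher, with a median log2 ratio of -0.71, and of 21 in the OLE library, 13 were lower and 0 higher (-0.79). *Lpcat2*, a lysophospholipid acyltransferase, had log2 ratios of -1.61 (-1.98 to -1.26) and -1.85 (-2.24 to -1.46). Of 20 and 18 activation genes, 14 and 14 were higher and 0 and 0 lower, with medians of 1.54 and 1.16. *Dkk2*, a Wnt inhibitor, had 181 UMIs in DAM-like and 6 in homeostatic-like nuclei of the vehicle library, and *Igf1*, a growth factor, 165 and 5.

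Among the ligands and signalling partners of the 10 genes, *Csf1* moved against its receptor *Csf1r*. *Csf1* was at 255 (209 to 308) in DAM-like and 29.3 (15.6 to 50.2) in homeostatic-like nuclei of the vehicle library, and at 204 (160 to 258) and 17.3 (6.36 to 37.7) in those of the OLE library. *Csf1* was one of the DAM markers that named the state, and *P2ry6* is on the marker list of the homeostatic-like state. *Entpd1*, the ectonucleotidase CD39 that degrades ATP and ADP outside the cell, was lower as *P2ry12* was, with log2 ratios of -0.77 (-1.07 to -0.47) and -0.81 (-1.14 to -0.50). Of 13 genes of this list in the vehicle library 2, *Csf1* and *P2rx4*, were higher by 1.5-fold and 4, *Entpd1*, *P2ry6*, *Inpp5d* and *Pik3cg*, lower (all genes 9.19% and 11.3%). Of 11 in the OLE library 1, *P2rx4*, was higher and 4, *Plcg2*, *Tgfb1*, *Entpd1* and *Inpp5d*, lower (9.53% and 14.4%). *P2rx4*, an ATP-gated channel, was higher in DAM-like nuclei, with log2 ratios of 0.94 (0.48 to 1.40) and 0.60 (0.01 to 1.22).

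TGF-beta signalling maintains the homeostatic program. Of 9 genes of the pathway in the vehicle library 1 was higher by 1.5-fold and 0 lower (all genes 9.19% and 11.3%), and of 8 in the OLE library 1 was higher and 2, *Tgfb1* and *Smad3*, lower (9.53% and 14.4%), with medians of -0.27 and -0.07. *Tgfbr1* was at 1832 in homeostatic-like and 1243 in DAM-like nuclei of the vehicle library (log2 ratio -0.56, -0.72 to -0.40) and had a log2 ratio of -0.44 (-0.62 to -0.25) in the OLE library. *Tgfbr2*, its partner in the receptor, was higher in DAM-like nuclei, with log2 ratios of 0.87 (0.64 to 1.11) and 0.60 (0.35 to 0.86). The log2 ratios of the receptor chains thus had opposite signs in both libraries, with that of *Tgfbr1* within 1.5-fold. *Tgfbr1* is on the marker list of the homeostatic-like state, so its sign is not independent of the grouping.

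Of 12 transcription factors of microglia in the vehicle library 1 was higher and 3, *Maf*, *Ikzf1* and *Mef2a*, were lower by 1.5-fold, and of 11 in the OLE library 1 was higher and 4, those 3 and *Sall1*, were lower. Over all genes the shares were 9.19% and 11.3% in the vehicle and 9.53% and 14.4% in the OLE library. *Maf* had the largest fall among those with at least 100 UMIs, with log2 ratios of -1.30 (-1.71 to -0.90) and -1.58 (-2.09 to -1.09). *Ikzf1* fell with it (-0.69, -0.93 to -0.46, and -0.88, -1.13 to -0.63). *Mitf*, a regulator of lysosomal genes, was higher in DAM-like nuclei, with log2 ratios of 1.07 (0.80 to 1.34) and 0.89 (0.60 to 1.19). The factors thus moved in both directions.

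The second question was whether the 10 genes differed between OLE and vehicle microglia. None of the 10 was past 1.5-fold in either direction, against 3.35% of the 3587 genes with at least 100 UMIs in microglia, and so 0 were higher, against 1.98%, and 0 lower, against 1.37%. A log2 ratio of OLE to vehicle above 0 was found for 8 of the 10, against 45.8% of all genes, and one below 0 for 2, against 54.2%, and the median was 0.16 against -0.02 over all genes. The counting interval excluded 0 for 2 of the 10, *Slc2a5* and *Csf1r*, and for 12.4% of all genes. With 1 library each, none of these differences has a replicate check, and those of single genes were small.

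*Slc2a5* had the largest difference. Its level was 113 (91.6 to 138) in vehicle and 156 (128 to 188) in OLE microglia, from 97 and 108 UMIs, with a log2 ratio of 0.46 (0.05 to 0.87). *Csf1r* was at 873 (812 to 938) and 1016 (942 to 1094), with a log2 ratio of 0.22 (0.07 to 0.37). For *Csf1r* this excludes a difference past 1.5-fold by counting error, while for *Slc2a5* the interval extends past it. *P2ry13* (0.31, -0.18 to 0.80), *Gpr34* (0.30, -0.02 to 0.62) and *Tmem119* (0.28, -0.07 to 0.63) had higher points in the OLE library with intervals that included 0. *P2ry12* (0.10, -0.06 to 0.27), *Selplg* (0.06, -0.12 to 0.25), *Cx3cr1* (0.03, -0.12 to 0.19), *Siglech* (-0.00, -0.18 to 0.18) and *Sall1* (-0.10, -0.48 to 0.28) lay close to 0. A difference past 1.5-fold lay outside the intervals of *P2ry12*, *Selplg*, *Cx3cr1*, *Siglech* and *Sall1*.

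**Figure D3:**
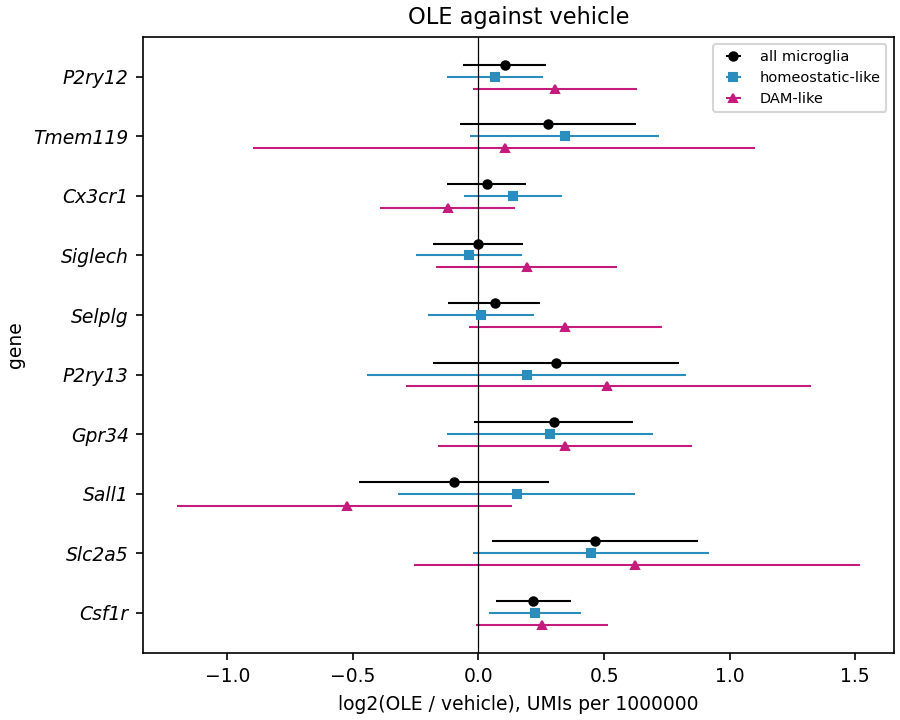
Log2 ratio of OLE to vehicle (x axis, from UMIs per 1000000) for each gene (y axis) in all microglia (black circles), homeostatic-like (blue squares) and DAM-like nuclei (pink triangles), where bars are exact 95% intervals for counting error. Most points lie between 0 and 0.5, those of *Sall1* spread from -0.52 in DAM-like to 0.15 in homeostatic-like nuclei, and most intervals include 0.

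Within the states the picture was similar. In homeostatic-like nuclei 0 of 9 genes with at least 100 UMIs were past 1.5-fold, against 4.79% of 1795 genes, 0 were higher, against 1.89%, and 0 lower, against 2.9%, with a median log2 ratio of 0.15 against -0.01 over all genes. In DAM-like nuclei these were 0 of 6, against 5.23% of 1777 genes, 0 were higher, against 2.7%, and 0 lower, against 2.53%, with a median of 0.28 against -0.04. *Csf1r* had log2 ratios of 0.23 (0.04 to 0.41) in homeostatic-like and 0.25 (-0.01 to 0.52) in DAM-like nuclei. *Slc2a5* had 0.45 (-0.02 to 0.92) and 0.62 (-0.26 to 1.52), the latter from 21 and 27 UMIs. *Sall1* pointed in opposite directions, with 0.15 (-0.32 to 0.62) in homeostatic-like and -0.52 (-1.20 to 0.13) in DAM-like nuclei, but both intervals included 0 and the difference between the states was not tested.

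Some markers of other cells differed between the libraries in homeostatic-like nuclei. The 12 glutamatergic markers summed to 6655 UMIs per 1000000 (6417 to 6900) in the vehicle and 5145 (4908 to 5389) in the OLE library, with *Ptprd* the most abundant and none at 0. In DAM-like nuclei they were at 6967 (6715 to 7225) and 6792 (6520 to 7071). The 12 oligodendrocyte markers were at 871 (786 to 962) in vehicle and 661 (578 to 753) in OLE homeostatic-like nuclei, while in DAM-like nuclei they were at 940 (849 to 1038) and 953 (853 to 1061). The 12 astrocyte markers were at 853 (769 to 943) and 881 (784 to 985) in homeostatic-like nuclei. The 6 T cell markers summed to 22 UMIs, or 49.6 (31.1 to 75.1), in vehicle and 88 UMIs, or 254 (204 to 313), in OLE homeostatic-like nuclei, and were at 40.9 (23.8 to 65.5) and 37.4 (19.9 to 64.0) in DAM-like nuclei. In the OLE library the intervals of the 2 states were thus apart for glutamatergic, oligodendrocyte and T cell markers. *Skap1* was the most abundant in the OLE library with 40 UMIs, and *Cd3e*, *Cd3g* and *Themis* were at 0 in the vehicle library. When homeostatic-like nuclei with a UMI of a T cell marker were left out, a choice made after seeing the data, the median log2 ratio of the 10 genes over all microglia was 0.22. When the neuronal profile was subtracted it was 0.13. At resolution 0.6, a group of 43 vehicle and 33 OLE nuclei met the rule for T cells, led by *Gm2682*, *Skap1* and mitochondrial genes, and 8 and 9 nuclei led by neuronal genes stayed unnamed. At the resolution used above these groups did not separate from microglia. *Csf1r* had log2 ratios of OLE to vehicle of 0.26 with the T cell nuclei left out and 0.18 with the neuronal profile subtracted, and *Slc2a5* 0.40 and 0.43. With nuclei thinned to 1000 UMIs that of *Csf1r* was lower, at 0.08. The part of oligodendrocyte markers was not tested.

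Few genes of the lists differed by 1.5-fold between the conditions. Of 26 other homeostatic or microglia-enriched genes 1 was higher by 1.5-fold in OLE microglia and 0 were lower, against 1.98% and 1.37% of all genes, with a median of 0.14. That gene was *Cst3*, the gene of the protease inhibitor cystatin C, at 2000 in vehicle and 3175 in OLE microglia (log2 ratio 0.67, 0.58 to 0.76). Of 25 activation genes 1 was higher, *Cd68* (0.75, 0.39 to 1.11), and 1 lower, *Gpnmb* (-0.95, -1.54 to -0.39), against the same shares, with a median of 0.24. Over all microglia both lists thus had medians above that of all genes, but in DAM-like nuclei alone the medians were -0.06 and -0.02, against -0.04 over all genes, and in homeostatic-like nuclei 0.14 and 0.25, against -0.01. In DAM-like nuclei 3 of 19 other homeostatic genes were higher, *Cst3* (0.94, 0.79 to 1.10), *Sparc* and *P2ry6*, against 2.7% of all genes, and 0 lower, against 2.53%. Of 25 activation genes there, 3 were higher, *Cd68*, *Ctsz* and *Trem2*, and 2 lower, *Gpnmb* and *Apobec1*. None of 14 ligands and partners (median 0.07), of 11 TGF-beta pathway genes (-0.09) or of 12 transcription factors (0.02) was past 1.5-fold over all microglia, against 3.35% of all genes. In DAM-like nuclei 1 of 12 ligands and partners was higher, *P2ry6* (0.61, 0.09 to 1.12), against 2.7% of all genes, and 3 were lower, *Plcg2* (-0.96, -1.46 to -0.46), *P2rx4* (-0.63, -1.10 to -0.17) and *Kcnk13* (-0.60, -1.08 to -0.14), against 2.53%. *Kcnk13*, a potassium channel gene of microglia, was at 294 in vehicle and 213 in OLE microglia (-0.47, -0.77 to -0.17), and *Fli1*, an ETS factor, had a log2 ratio of -0.24 (-0.40 to -0.08).

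In other cell types the counts were too low for most of the genes. In glutamatergic nuclei 6 of the 10 had at least 100 UMIs, with a median of 0.13 against 0.07 over all 14003 genes. *P2ry12* was at 8.36 (7.51 to 9.28) in the vehicle and 11.7 (10.7 to 12.8) in the OLE library there, from 352 and 460 UMIs, with a log2 ratio of 0.49 (0.28 to 0.69). *Cx3cr1* had 0.33 (0.10 to 0.56). In GABAergic nuclei *P2ry12* was at -0.10 (-0.62 to 0.41) on the log2 scale, from 73 vehicle and 62 OLE UMIs, and *Cx3cr1* at 0.34 (-0.19 to 0.87). These intervals overlap those of glutamatergic nuclei, and a difference between the neuronal classes was not tested.

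Of the ligands of these receptors, *Il34* and *Cx3cl1* were higher in other cells than in microglia, and *Tgfb1*, a ligand of the pathway that maintains the program, was highest in microglia. *Il34*, a ligand of the Csf1 receptor, had its highest levels in endothelial and mural nuclei, at 190 (130 to 268) in the vehicle and 161 (112 to 225) in the OLE library, and in vascular leptomeningeal nuclei, at 161 (131 to 195) and 111 (87.4 to 139). In glutamatergic nuclei it was at 25.4 and 24.7. *Csf1*, the other ligand, was at 81.6 (70.0 to 94.5) and 75.1 (63.0 to 88.9) in oligodendrocytes and at 139 (115 to 166) and 111 (87.6 to 139) in microglia. *Cx3cl1*, which encodes fractalkine, was at 74.5 (71.9 to 77.2) and 103 (99.5 to 106) in glutamatergic and at 50.1 (45.0 to 55.6) and 71.7 (65.3 to 78.6) in GABAergic nuclei, higher in the OLE library in both neuronal classes. In microglia it stood at 48.9 (35.2 to 66.1) and 50.4 (35.1 to 70.2). *Tgfb1* was microglial itself, at 171 (145 to 201) and 159 (130 to 191), and at most 47.4 in each other named cell type. *Selp*, which encodes P-selectin, had 0 UMIs in microglia and in endothelial and mural nuclei, where 3 UMIs, the limit taken for a count of 0, are 17.8 and 14.2 in the latter.

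Across 14 profiles, made of 7 cell types in the 2 libraries, 14384 genes with at least 200 UMIs were compared with the mean of the 10 genes by the correlation of log2(UMIs per 1000000 + 10). The profiles of a library share its preparation and depth, and microglia stand so far apart that any microglial gene scores high. The 10 most alike were *Trem2* (Pearson's r = 0.998), *Fcrls*, *Ly86*, *Havcr2*, *Cd300c2*, *Csf3r*, *Cyth4*, *Spi1*, *Klhl6* and *Arhgap45* (0.995). Of these, *Ly86*, *Cyth4*, *Spi1* and *Arhgap45* are on the marker list that named microglia, so their likeness is not independent of the naming. Alike across cell types, the 10 did not all have the same sign between the states. *Trem2* is on the marker list of the DAM-like state and *Fcrls* on that of the homeostatic-like state. Their signs are thus not independent of the grouping and are given as a description. *Trem2*, the lipid receptor of the DAM program, had log2 ratios of DAM-like to homeostatic-like of 0.70 in the vehicle and 1.01 in the OLE library, *Fcrls* -0.83 and -0.60, and *Spi1*, the gene of the factor PU.1, -0.35 and -0.48.

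The genes lie on 8 chromosomes of GRCm38, where *Csf1r* was placed above, and those that share one are neighbours. *P2ry12* (ENSMUSG00000036353, chromosome 3, 59216272 to 59262871, minus strand) and *P2ry13* (ENSMUSG00000036362, 59207892 to 59210882, minus strand) are 5.39 kb apart. *Tmem119* (ENSMUSG00000054675, chromosome 5, 113793729 to 113800516, minus strand) and *Selplg* (ENSMUSG00000048163, 113818536 to 113832644, minus strand) are 18.0 kb apart. No protein-coding gene lies between the genes of either pair. The others are *Cx3cr1* (ENSMUSG00000052336, chromosome 9, 119901616 to 120069879, minus strand), *Siglech* (ENSMUSG00000051504, chromosome 7, 55768178 to 55778925, plus strand), *Gpr34* (ENSMUSG00000040229, chromosome X, 13632089 to 13640858, plus strand), *Sall1* (ENSMUSG00000031665, chromosome 8, 89027235 to 89044162, minus strand) and *Slc2a5* (ENSMUSG00000028976, chromosome 4, 150119283 to 150144169, plus strand).

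The pair *P2ry12* and *P2ry13* shared its placement in microglia, while which was higher depended on the scale. Per exon kb it was *P2ry12*. Per kb of gene body it was *P2ry13*, at 28.4 in the vehicle and 35.2 in the OLE library, against 16.5 and 17.7 for *P2ry12*. The 250 bases before the start of each are shown, from RefSeq on GRCm38.p6, where 6 of the 10 genes were matched. Capitals mark GAGGAA, the core that the ETS factor PU.1 binds, searched on both strands (TTCCTC on the other), with no other motif searched. It is held by 23.3% of all 32851 promoters of this length and, among the 6 matched genes, by the promoter of 1, *P2ry13*, where it starts 48 bases before the start. A match is a description of the letters and not a site. Both stretches lie on the minus strand, chr3:59262986-59263235 for *P2ry12* and chr3:59210883-59211132 for *P2ry13*, and are printed 5′ to 3′.
P2ry12: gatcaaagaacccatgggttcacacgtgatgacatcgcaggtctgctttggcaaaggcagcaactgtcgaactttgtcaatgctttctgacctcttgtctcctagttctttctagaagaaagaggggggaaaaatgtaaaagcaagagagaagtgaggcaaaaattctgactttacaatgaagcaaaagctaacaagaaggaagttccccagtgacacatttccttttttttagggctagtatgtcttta
P2ry13: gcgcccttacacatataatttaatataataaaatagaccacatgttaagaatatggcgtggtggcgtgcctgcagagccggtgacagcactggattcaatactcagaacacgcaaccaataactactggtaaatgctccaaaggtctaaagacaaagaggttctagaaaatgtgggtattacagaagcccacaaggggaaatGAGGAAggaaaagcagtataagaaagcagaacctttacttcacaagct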

How the data were processed

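The authors' deposited values were raw count matrices, where a count is 1 UMI of a gene in a nucleus, made with Cell Ranger 3.0.1 on the mouse mm10 genome with introns counted. No normalization had been applied.

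Scrublet, run with an expected doublet share of 5%, marked under 0.5% of nuclei by its automatic threshold, so nuclei at or above the score that bounds the top 5% of each library, ties at that score included, were left out (372 vehicle and 311 OLE nuclei), which left 6373 and 5862 nuclei. Counts were normalized by SCTransform (sctransform 0.4.2 in Seurat 5.3.0, R 4.3.3) with 3000 variable genes, from which the 10 genes were removed (8 of them were among these, which left 2992). Clustering used 30 principal components, 20 neighbours and the Louvain method at resolution 0.4, with seed 1. Microglia were clustered again with 15 components at resolution 0.3. The marker lists were fixed before the data were examined here, though earlier results of these data were known. The rules that turn markers into names were chosen once clusters were known. For a cluster to be named, at least 3 markers had to reach 25% of the highest cluster and be detected in enough of its nuclei. The mean of these relative levels had to be at least 25%. The second cell type had to score far lower, by a stricter limit without an own marker among the top 10 genes. No other cell type could have more markers there. All 5 unnamed clusters came closest to glutamatergic nuclei but failed one of the later conditions. A state was named when at least 3 markers were raised 1.5-fold, with 20 added per 1000000 UMIs, and at least 1 was among its top 10 genes.

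UMIs were summed over the nuclei of a group and divided by all UMIs of the group. No pseudocount entered a ratio. Intervals are 95% (exact Poisson for levels, Clopper-Pearson for shares and, through the split of UMIs between groups, for ratios) and cover counting error only. A gene was called past 1.5-fold when it had at least 100 UMIs over both groups. Nuclei were thinned to 1000 UMIs for shares and for the activation score. By a rule fixed before the data were examined here, the 10 genes, the 3 highest and 3 lowest of each list, the 10 most alike genes and overlapping genes could be named. Which of these to print, and the leading or marker genes of clusters and other genes named outside the rule (*Cd3e*, *Cd3g*, *Ctnna3*, *F13a1*, *Gm2682*, *Hba-a1*, *Hba-a2*, *Mamdc2*, *Mrc1*, *Pik3cg*, *Ptprd*, *Selp*, *Skap1*, *Themis*), were chosen after their values were seen. The 10 genes and the lists were chosen with earlier results of these data known.

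The other settings tried were no removal of doublets, log-normalized counts, the 10 genes allowed in clustering, microglia by marker UMIs, macrophage-like nuclei kept in, scaling to the median gene or to microglial genes, thinning, minimums of 30 and 200 UMIs, subtraction of the glutamatergic profile, states from the activation score and resolution 0.6. Leaving out nuclei with T cell markers was chosen after seeing the data. Further tools were Python 3.11.15, scanpy 1.11.5, numpy 2.4.6, scipy 1.17.1, pandas 2.3.3 and matplotlib 3.10.9.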

Additional observations from a re-analysis of the deposited data

How the results depend on the processing

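No paired analysis was possible because each condition had 1 library of pooled mice. Over 14 settings, 63 of 78 values of the summed levels, medians and counts stayed within the range set for them, 15 moved and none changed direction.

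With no nuclei left out as doublets, the summed level in microglia was 4113 UMIs per 1000000 in the vehicle and 4509 in the OLE library, and the median log2 ratio of DAM-like to other microglia in the OLE library was -0.93. In that setting 26 vehicle and 16 OLE nuclei led by neuronal genes formed an unnamed group, so other microglia need not all be homeostatic-like. The log2 ratio of *Gpr34*, DAM-like to other microglia, was 0.12 there in the OLE library. With log-normalized counts before clustering, the summed level in the OLE library was 5239 and the median between states in the vehicle library -1.16. With microglia taken by marker UMIs, the summed levels were 4686 and 5269. With states taken as the upper and lower part of the activation score, the medians were -0.84 and -0.67, and 5 genes were past 1.5-fold in the OLE library. At resolution 0.6, where further groups formed too, the medians were -1.18 and -1.04. With nuclei thinned to 1000 UMIs the median in the OLE library was -1.15, and all 5 genes that could be compared there were past 1.5-fold. With the glutamatergic profile subtracted the median was -1.25. For each of these changes the cause was not tested.

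Of 144 values of single genes between the states, 143 were below 0, and 28 moved. All 116 values of single genes between OLE and vehicle microglia stayed within their range, 111 with the same sign. Among the 116 are values at minimums of 30 and 200 UMIs, which cannot change the ratio of a single gene and so equal the main ones. Depth limits *P2ry13* most, with 73 UMIs in each library's microglia, and the macrophage-like group.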
